A study of Mus musculus with 23 samples.

Results

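The constitutive proteasome subunits are described here in mouse colon over 6 days of chemical injury. Members were all probe sets whose platform gene symbol starts with Psma, Psmb, Psmc or Psmd and a digit, apart from Psmb8, Psmb9 and Psmb10. The rule took 76 of 45101 probe sets, which name 37 of 18193 genes. A filter on dim signal kept 58 of these probe sets and 35 of the genes, among 12463 genes tested. The genes left out were Psma8, a testis form, with signals from 1.21 to 58.6, and Psmb11, a thymus form, with signals from 1.43 to 55.3, both below the array medians of 97.3 to 121. The rule also took Psmc3ip, which shares the letters of the symbol but encodes a partner of the meiotic recombinases and no subunit, so 34 tested genes belong to the proteasome or to the assembly of its cap.

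The proteasome degrades proteins that carry ubiquitin chains. Its barrel-shaped core, the 20S particle, has outer rings of alpha subunits (Psma genes) that gate the entrance and inner rings of beta subunits (Psmb genes), of which Psmb5, Psmb6 and Psmb7 cut peptide bonds. The 19S cap has a base, with a ring of ATPases (Psmc genes) that unfolds substrates, and a lid that removes ubiquitin. Under interferon the cutting subunits are replaced by Psmb8, Psmb9 and Psmb10 to form the immunoproteasome, so these inducible genes are not members.

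Total RNA of the colon of C57BL/6J mice aged 12 to 14 weeks was hybridised to 23 Affymetrix arrays. Day 0 has 5 untreated mice, and days 2, 4 and 6 have 6 mice each, which drank water with 3% dextran sulfate sodium (DSS), a polymer that damages the colon lining. Each array is a separate animal, named by its day and mouse number, and no animal was sampled at more than 1 day. The labels name no colon segment, cage or processing batch. The p-values rest on the spread between the arrays of these animals within a day. Any processing that differed by day cannot be told apart from the DSS. In RNA of whole tissue, fewer cells of a type and less RNA per cell cannot be told apart.

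Values are the authors' signal intensities, scaled to a trimmed mean of 500 on every array. Changes are differences of log2(signal + 16), with the pseudocount understating changes of dim genes, and the threshold for a call was an adjusted p of 0.05 in limma (Benjamini-Hochberg over all 12463 genes). The number of arrays limits the precision. All 15 listed epithelial markers passed the filter on dim signal, with a summed signal of 167300 to 236100 over the arrays. This shows epithelium in the samples but does not by itself identify the part of the gut.

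Several properties of the arrays moved with the day. The log2 level of the hybridization controls, foreign transcripts added to each sample, was 11.35 to 11.51 at day 0 and 10.68 to 11.14 at day 6. The means differed by -0.52 (adjusted p = 0.00649, exact permutation test, two-sided, 9 tests). The log2 ratio between the 3' and the 5' control probe sets, which rises as RNA degrades, was higher by 0.09 for beta-actin and by 0.15 for Gapdh at day 6 (both adjusted p = 0.00487 in the same exact permutation tests). At day 4, when the median change of the members was 0.00, these ratios were already higher, by 0.18 for both, and the hybridization controls differed by -0.40 (adjusted p = 0.00649, 0.00487 and 0.00487 in the same exact permutation tests). At day 6, 10 of 10 macrophage, 4 of 5 neutrophil and 10 of 10 fibroblast markers tested had risen, and 3 of 15 epithelial markers had fallen. Of all genes, 18.1% were higher and 14.3% lower, so the epithelial share lower (20%) was near that of all genes. Only 5 of 11 listed neutrophil markers passed the filter, which needs 5 arrays above the array median. A marker dim at day 0 can thus enter through its day 6 arrays, as Csf3r could (46.1 to 102 at day 0, 207 to 750 at day 6). The count of such rises can be partly fixed by the filter. The summed signal of the macrophage markers was 8636 to 12400 at day 0 and 18670 to 34770 at day 6, that of the neutrophil markers 253 to 681 and 2152 to 12750, and that of the fibroblast markers 40230 to 49200 and 59660 to 97400. Of the other lists, 4 of 10 squamous (40%) and 1 of 10 smooth muscle markers (10%) rose, beside 18.1% of all genes. In turn, 1 of 8 plasma and B cell (12.5%) and 1 of 4 pancreas markers (25%) fell, beside 14.3% of all genes. None of 10 skeletal muscle markers passed. The part of cell makeup and of RNA degradation in the results below was not tested. There were 4 arrays that stood apart: day 2 mouse 6 for a summed pancreas signal of 106300 and day 6 mouse 1 for 29600, against at most 11660 on the other arrays, and day 2 mouse 8 and day 4 mouse 8 for low skeletal muscle (1486 and 1430) and squamous (919 and 1120) signal.

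Of the 35 genes, 1 had passed by day 4, and at day 6 subunits of the core, the base and the lid were modestly higher. At day 2 none of 35 passed in either direction, beside 0.016% of all genes higher and 0.0642% lower, and 5 of 35 had an unadjusted p under 0.05, beside 1595 of all 12463 genes. At day 4 only Psma6 was higher (2.86% of members) and none was lower, beside 12.1% of all genes higher and 4.32% lower. At day 6, 12 of 35 genes (34.3%) were higher and 1 (2.86%) was lower, beside 18.1% and 14.3% of all genes. The 12 rises lay between 1.11-fold and 1.32-fold. The comparisons with day 0 share its 5 arrays and are not independent of each other.

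The median log2 change of the 35 genes was 0.03 at day 2, 0.00 at day 4 and 0.15 at day 6, beside 0.01, 0.06 and 0.02 over all genes tested. Changes at day 6 were positive for 27 of 35 genes, and they ran from -0.25 to 0.44. The upper end was that of Psmc3ip, which is no subunit, and the largest change of a subunit was 0.41 (Psmd3). Centring each array on its median, in place of the authors' scaling, gave 5 genes higher and 3 lower at day 6 and a median of 0.06, while the median of all genes moved from 0.02 to -0.06. Under that centring, 14.3% of members and 12.5% of all genes were higher and 8.57% and 19.1% were lower, so the members' share of rises was then close to that of all genes. With the level of the hybridization controls in the fit, 3 genes (8.57%) were higher and none lower, beside 4.56% and 3.99% of all genes. Each of the 12 rises kept a positive change, down to 0.08 for Psma3 (limma adjusted p = 0.698), but only 3 passed. These 12 were picked for rising on the same arrays, so the kept sign is no separate support. Without the 4 arrays that stood apart, 12 genes (34.3%) were higher and 2 (5.71%) lower at day 6, beside 19.6% and 14.3% of all genes. At day 4 none was then higher and 1 (2.86%) lower, beside 13.2% and 4.53% of all genes. Leaving out single arrays gave 9 to 13 genes higher at day 6, beside 15.8% to 19% of all genes. Across all 4 days, 14 of 35 genes (40.0%) differed by limma's F test, beside 43.6% of all genes.

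**Figure D1:**
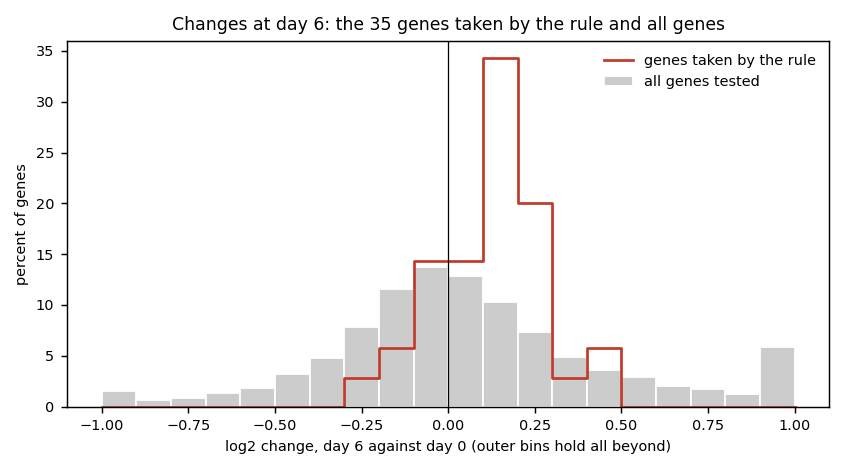
Share of genes, in percent, by log2 change of day 6 against day 0, for the 35 genes taken by the rule (red line) and for all 12463 genes tested (grey bars), in steps of 0.1; the outer bins also hold all larger changes. The most filled step of the genes taken by the rule, from 0.1 to 0.2, holds 12 of 35, and none lies beyond -0.3 or 0.5.

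Under the authors' scaling, the shift showed on every day 6 array. Means per array were not computed under median centring. The mean log2 difference of the 34 proteasome genes from their day 0 means ran from -0.03 to 0.03 on the arrays of day 0, from -0.04 to 0.09 at day 2, from -0.03 to 0.04 at day 4 and from 0.04 to 0.17 at day 6. All 6 arrays of day 6 thus lay above those of day 0, but day 2 mouse 52, at 0.09, lay within the day 6 range. Day 6 mouse 21, with the highest mean at 0.17, also had the highest summed macrophage, neutrophil and fibroblast signals and the lowest summed epithelial signal of the 23 arrays. The other arrays of that day did not keep this order. Day 6 mouse 4, with macrophage and neutrophil sums of 27680 and 11620, had a mean of 0.07. Day 6 mouse 3, with the lowest of these sums that day (18670 and 2152), had a mean of 0.11. The part of these sums in the means was not tested. Day 6 mouse 29 had the lowest mean of that day, 0.04, with 21 of 34 genes above their day 0 mean, and the other day 6 arrays had 22 to 28.

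**Figure D2:**
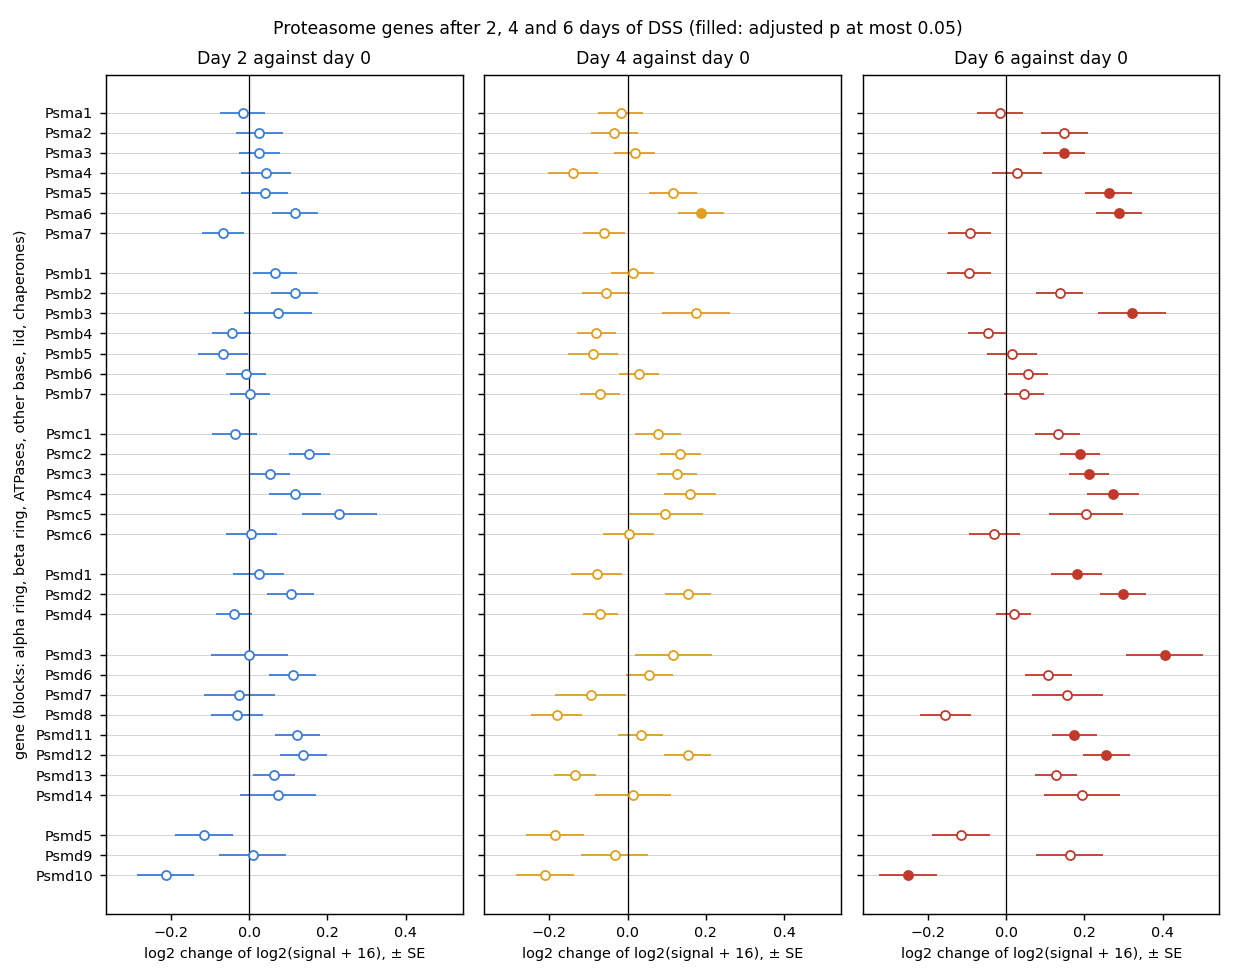
Log2 change ± SE (limma) of each of the 34 proteasome genes at day 2, day 4 and day 6 against day 0, in blocks by role; filled points passed at an adjusted p of at most 0.05. No point is filled at day 2, only Psma6 at day 4, and at day 6 the 12 genes that rose and Psmd10, which fell.

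In the alpha ring, 3 of 7 genes (42.9%) rose by day 6, beside 18.1% of all genes, and none fell. The median log2 change of the ring was 0.15. Psma6 had day 0 signals of 5426, 4973, 5012, 4484 and 4986. Its lowest, median and highest signals were 5126, 5277 and 6031 at day 2, 5415, 5636 and 6068 at day 4, and 5435, 6013 and 6934 at day 6. Every day 6 array thus lay above every day 0 array, the lowest of them by a narrow margin. The log2 change was 0.19 ± 0.06 (SE) at day 4, with an adjusted p of 0.0325, and 0.29 ± 0.06 at day 6, with an adjusted p of 0.000592. The day 4 call was lost without any of day 0 mouse 2, 3, 4 or 5 or day 4 mouse 3 or 4, with adjusted p up to 0.0994, and another bright probe set of Psma6 showed -0.09 at day 4 and 0.00 at day 6. Psma5 had signals of 5107, 4599, 4589, 4843 and 5116 at day 0 and 4955, 5952 and 6295 at day 6. Here the lowest day 6 array overlapped day 0, and the log2 change was 0.26 ± 0.06 (adjusted p = 0.00181).

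Psma3, also of the alpha ring, had signals of 6715, 6557, 6144, 6627 and 7050 at day 0 and 6864, 7148 and 8265 at day 6, so the days overlapped. Its log2 change of 0.15 ± 0.05 (adjusted p = 0.0346) did not pass without day 0 mouse 2, 3 or 4 or day 6 mouse 3 or 21, with adjusted p up to 0.107. Psma2 did not pass against day 0 (0.15 ± 0.06, adjusted p = 0.0621). The remaining alpha genes changed by 0.03 (Psma4), -0.02 (Psma1) and -0.09 (Psma7) at day 6, none past the threshold. Members of this ring thus ranged from a rise to small negative changes.

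In the beta ring, only Psmb3, a structural subunit, passed among 7 genes at day 6 (14.3% higher, beside 18.1% of all genes). The median log2 change of the ring was 0.05. Psmb3 had signals of 3657, 3045, 3056, 3329 and 3406 at day 0 and of 3576, 4182 and 4498 at day 6. Day 0 mouse 1 reached into the day 6 range, and the log2 change was 0.32 ± 0.09 (adjusted p = 0.00662). Its other probe set gave -0.06, in the opposite direction.

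The subunits that cut peptides did not pass at any day. Psmb5, the chymotrypsin-like site, had signals of 3798, 4001, 3789, 3748 and 4042 at day 0. It had lowest, median and highest signals of 3067, 3857 and 4092 at day 2, 3335, 3701 and 3817 at day 4, and 3574, 3940 and 4101 at day 6. All days overlapped, and the log2 change at day 6 was 0.01, with a 95% interval of -0.12 to 0.15. Psmb6, the caspase-like site, had signals of 3298, 3624, 3329, 3414 and 3428 at day 0 and 3402, 3589 and 3693 at day 6. Psmb7, the trypsin-like site, had 7493, 8130, 7190, 7376 and 7825 at day 0 and 7275, 7707 and 8571 at day 6. Their days overlapped too, with changes of 0.06 (-0.05 to 0.16) for Psmb6 and 0.05 (-0.06 to 0.15) for Psmb7. The structural genes Psmb1, Psmb2 and Psmb4 changed by -0.10, 0.14 and -0.05, none past the threshold.

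Of the 6 ATPases of the base, Psmc2, Psmc3 and Psmc4 (50%) rose by day 6, beside 18.1% of all genes, and none fell. Their median log2 change, over all 6, was 0.20. Psmc3 had signals of 3545, 3494, 3397, 3139 and 3384 at day 0. It had 3338, 3486 and 3779 at day 2, 3482, 3643 and 4078 at day 4, and 3699, 3891 and 4279 at day 6. The groups of day 0 and day 6 did not overlap, and the log2 change was 0.21 ± 0.05 (adjusted p = 0.00273). Psmc4 had signals of 3385, 4308, 3833, 4108 and 4375 at day 0 and 4550, 4622 and 5397 at day 6. These days were separate as well, with day 0 mouse 1 lowest, and the change was 0.27 ± 0.07 (adjusted p = 0.00289). Psmc2, with 3824, 3942, 3415, 3666 and 3508 at day 0 and 4018, 4152 and 4443 at day 6, did not overlap either (0.19 ± 0.05, adjusted p = 0.00717). The other ATPases were Psmc5 at 0.20 ± 0.10, Psmc1 at 0.13 ± 0.06 and Psmc6 at -0.03 ± 0.06, with adjusted p of 0.106, 0.0858 and 0.76.

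Both large scaffold subunits of the base rose, 2 of its 3 genes that encode no ATPase (66.7%, beside 18.1% of all genes). Psmd2, which docks the shuttles that deliver ubiquitylated proteins, had the lowest adjusted p of all 35 genes at day 6. Its signals were 4336, 4222, 3780, 4070 and 4267 at day 0. Lowest, median and highest signals were 4077, 4496 and 4861 at day 2, 4015, 4598 and 5084 at day 4, and 4870, 5031 and 5403 at day 6. All day 6 arrays lay above all day 0 arrays, while day 2 overlapped day 0 alone and day 4 overlapped both. The log2 change at day 6 was 0.30 ± 0.06, or 1.23-fold (adjusted p = 0.00046). Psmd1, its partner scaffold, had 2312, 2339, 1802, 1998 and 2281 at day 0 and 2302, 2452 and 2502 at day 6. The groups overlapped, and the change of 0.18 ± 0.07 (adjusted p = 0.0364) did not pass without day 0 mouse 3 or 4 or day 6 mouse 3, 4 or 21 (adjusted p up to 0.149), nor without the 4 arrays that stood apart (adjusted p = 0.0551, in a range of 0.02 to 0.505 over the alternatives). Psmd4, a receptor for ubiquitin chains, showed 0.02 with an interval of -0.08 to 0.11.

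In the lid, Psmd3, Psmd11 and Psmd12 rose among 8 genes (37.5%, beside 18.1% of all genes) and none fell. The median log2 change of the lid was 0.17. Psmd3, a structural subunit, had the largest rise of the 12. Its signals were 1819, 1445, 1670, 1117 and 1737 at day 0, and 1371, 1539 and 1699 at day 2. They were 1404, 1708 and 1820 at day 4 and 1873, 2035 and 2196 at day 6. The day 6 arrays lay above all others, and day 0 was the most spread day, with mouse 4 lowest. The log2 change was 0.41 ± 0.10, or 1.32-fold (adjusted p = 0.00281). Psmd12, also structural, had 1794, 1783, 1678, 1827 and 1621 at day 0, and 1842, 1880 and 2066 at day 2. It had 1811, 1940 and 2036 at day 4 and 1857, 2038 and 2312 at day 6. Its day 6 and day 2 arrays all lay above day 0, with changes of 0.26 ± 0.06 at day 6 (adjusted p = 0.00201) and 0.14 ± 0.06 at day 2 (adjusted p = 0.321).

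Psmd11, which clamps the lid to the base and the core, had 4559, 4016, 4153, 4325 and 4325 at day 0 and 4662, 4789 and 5004 at day 6. The groups did not overlap, yet the change of 0.17 ± 0.06 (adjusted p = 0.0233) was lost without day 0 mouse 2 or 3, with adjusted p up to 0.0681. Psmd14, the enzyme that takes ubiquitin chains off the substrate, had signals of 4269, 5218, 4880, 4135 and 4492 at day 0 and 4668, 4997 and 6240 at day 6. These overlapped, and the change of 0.19 ± 0.10 did not pass (adjusted p = 0.133). Its partner Psmd7 showed 0.16 ± 0.09 and Psmd6 0.11 ± 0.06. Psmd8 was the only lid gene with a negative change, -0.16 ± 0.07 (adjusted p = 0.0763).

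Of the 3 chaperones that assemble the base and are absent from the finished particle, 1 fell (33.3%, beside 14.3% of all genes) and none rose. Psmd10, also called gankyrin, was the only gene of the 35 that fell against day 0. Its signals were 896, 821, 853, 943 and 899 at day 0. They were 688, 774 and 810 at day 2, 700, 760 and 835 at day 4, and 629, 734 and 831 at day 6. Every day 2 array lay below every day 0 array, and by day 6 the highest array overlapped the lowest of day 0. The log2 changes were -0.21, -0.21 and -0.25, each with an SE of 0.07, and only that of day 6 passed (adjusted p = 0.203, 0.0511 and 0.0106). Psmd5 showed -0.12 ± 0.07 and Psmd9 0.16 ± 0.09 at day 6, neither past the threshold.

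**Figure D3:**
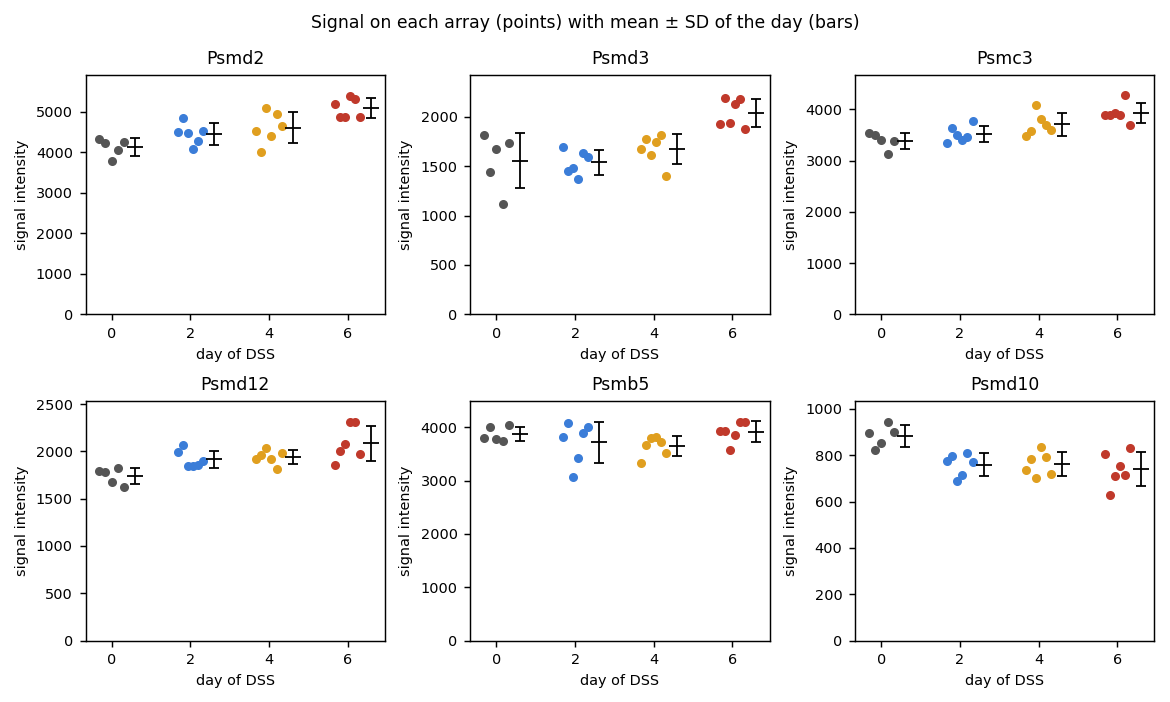
Signal intensity on each array (points, coloured by day) for 6 proteasome genes, with the mean ± SD of each day as bars; the vertical axes start at 0. The day 6 points of Psmd2, Psmd3, Psmc3 and Psmd12 all lie above those of day 0, those of Psmb5 overlap day 0 throughout, and those of Psmd10 lie lower apart from an overlap of the highest with day 0.

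The steps between successive later days went in opposite directions for a few subunits. From day 2 to day 4, none of 35 genes rose and Psma4 and Psmd13 fell, 5.71% beside 9.44% of all genes higher and 4.09% lower. From day 4 to day 6, 8 genes (22.9%) rose and none fell, beside 9.09% and 13.7% of all genes. The medians over the members were -0.03 and 0.11, beside 0.06 and -0.03 over all genes, and 31 of 35 genes had a positive change from day 4 to day 6. In the step from day 2 to day 4, 7 of 15 epithelial markers fell and 6 of 10 fibroblast and 3 of 10 macrophage markers rose. From day 4 to day 6, 8 of 10 macrophage, 4 of 5 neutrophil and 4 of 10 fibroblast markers rose and 7 of 10 smooth muscle markers fell, and the part of these shifts was not tested. Centring on the array median left 2 of those 8 rises, Psmd1 and Psmd13, with a median of 0.05, and that share of 5.71% was close to the 6.12% of all genes higher under it. Leaving out day 4 mouse 8 or day 6 mouse 1 or 4 left 5 rises, day 6 mouse 7 left 4 and day 6 mouse 21 left 3. All genes higher were then 7.26% to 8.35%. Leaving out the 4 arrays that stood apart left 3 rises (8.57%, beside 7.35% of all genes).

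Psmd13, a structural lid subunit, both fell and rose. It had signals of 1653, 1735, 1563, 1526 and 1622 at day 0, and 1617, 1695 and 1775 at day 2. At day 4 it had 1404, 1470 and 1554, and at day 6 1654, 1769 and 1971. The day 4 arrays lay below all those of day 2 and day 6, and the day 6 arrays overlapped day 0. The log2 change was -0.20 from day 2 to day 4 (adjusted p = 0.0166) and 0.26 from day 4 to day 6 (adjusted p = 0.00075). Its second probe set gave -0.12 for the fall, which did not pass (adjusted p = 0.21), and 0.29 for the rise. The fall was also lost with the probe sets averaged, the mouse number as a block or the hybridization control level in the fit. Psmd1 also rose from day 4 to day 6 without overlap, from 1933, 2001 and 2182 to the day 6 values given above (0.26, adjusted p = 0.00398), and both of these last rises passed under all 36 alternatives tried (adjusted p up to 0.0459 for Psmd1 and 0.04 for Psmd13).

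The other rises of that step were smaller or less stable. Psmd3 (0.29, adjusted p = 0.0284) was lost without day 4 mouse 4 or 8 or day 6 mouse 3, 7 or 21, with adjusted p up to 0.0783. Psmb2, a structural beta subunit, changed by 0.19 (adjusted p = 0.0183) and kept its call without each array. Psma2 changed by 0.18 (adjusted p = 0.023) and was lost without day 6 mouse 1 or 21, with adjusted p up to 0.0655. Psmd7 (0.25, adjusted p = 0.0399) was lost without day 4 mouse 3, 4, 7 or 8 or day 6 mouse 1, 4, 7 or 21, with adjusted p up to 0.107. Psma4 fell by 0.18 on the log2 scale from day 2 to day 4 (adjusted p = 0.0483) and then rose by 0.17 (adjusted p = 0.0478), and these calls were lost without any of 17 and any of 16 of the 23 arrays, from all 4 days, with adjusted p up to 0.114 and 0.129. Psmc3ip, no subunit and close to the array medians in signal (20.6 to 167), changed by 0.76 (adjusted p = 0.0442) and was lost without day 2 mouse 1 or 7, day 4 mouse 3 or 6, or day 6 mouse 1, 3, 4, 7 or 21, with adjusted p up to 0.115.

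Probe sets of the same gene gave different values for several subunits. Of the 12 genes that rose at day 6, Psmc3, Psmd1, Psmd2, Psmd3 and Psmd12 had 1 kept probe set. The other 7 had more, and their second-brightest probe set was higher as well for Psmd11 alone (0.26), while it showed 0.13 for Psma3, 0.15 for Psma5, 0.00 for Psma6, -0.06 for Psmb3, 0.12 for Psmc2 and 0.07 for Psmc4. The brightest probe sets of Psma6 and Psmc2 belong to a class whose name marks probes shared with other transcripts, and that of Psmd11 to a class whose probes match several transcripts. Taking every kept probe set on its own, 13 of 58 (22.4%) were higher at day 6 and 1 was lower, beside 14.6% and 16.2% of all 21639. With the second-brightest probe set in place of the brightest, a choice made after seeing the data, 6 of 35 genes (17.1%) were higher and 1 (2.86%) was lower, beside 14.7% and 15.5% of all genes.

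**Figure D4:**
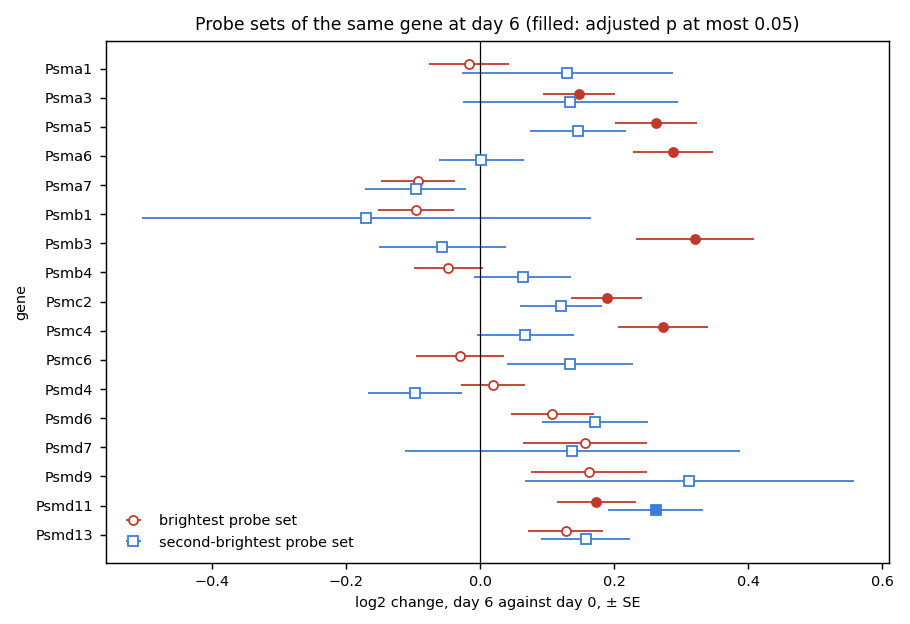
Log2 change ± SE of day 6 against day 0 for the brightest (red circles) and second-brightest (blue squares) probe set of 17 genes, those for which several probe sets were kept; filled points passed in the fit of every probe set on its own. The pairs of Psma6 and Psmb3 lie apart, and Psmd11 is the only gene with both points filled.

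Several alternatives ended calls of day 6. Under median centring Psma5, Psma6, Psmb3, Psmd2 and Psmd3 still rose. With the hybridization control level as a covariate, Psma6, Psmb3 and Psmc4 did, and the adjusted p of Psmd2 was 0.138 and that of Psmd3 0.188, the highest of their 36 alternatives, whose lowest were 0.000184 and 0.00124. Their log2 changes with the covariate were 0.27 and 0.40, beside 0.30 and 0.41 without it. Psmd2 and Psmd3 therefore rose on a single probe set each, with each array left out and under centring, and Psma6 and Psmb3 under both alternatives but on 1 of their probe sets only. The control levels of day 0 (11.35 to 11.51) and day 6 (10.68 to 11.14) did not overlap, so the covariate can hardly be told apart from the day. Passing or failing with it in the fit thus does not decide whether a rise holds.

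The inducible partners of the cutting subunits rose by larger amounts. Psmb8 had signals of 684, 833 and 1166 (lowest, median and highest) at day 0 and 1565, 2154 and 3497 at day 6, without overlap. Psmb9 went from 525, 571 and 981 to 1231, 1862 and 2493, and Psmb10 from 2409, 2671 and 3314 to 3561, 4369 and 4973, again without overlap. Their log2 changes were 1.37, 1.40 and 0.63, and Psme1, a subunit of the interferon-inducible cap, changed by 0.37, so that all 4 genes tested of this list of 5 rose. At day 4 Psmb8 and Psmb9 had risen, each by 0.58. Dividing each inducible subunit by the constitutive subunit it replaces, within each array, removes the scaling.

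The log2 ratio of Psmb8 to Psmb5 increased by 0.23 ± 0.21 (SE) at day 2, 0.67 ± 0.17 at day 4 and 1.36 ± 0.25 at day 6 (adjusted p = 0.324, 0.0195 and 0.00974, exact permutation test, two-sided, 9 tests). That of Psmb9 to Psmb6 increased by 0.15 ± 0.23, 0.56 ± 0.21 and 1.34 ± 0.25 (adjusted p = 0.537, 0.052 and 0.00974 in the same exact permutation tests). For both ratios no day 6 array overlapped day 0, and their unadjusted p of 0.00216 is the smallest that 5 against 6 arrays can give. The ratio of Psmb10 to Psmb7 increased by 0.24 ± 0.12, 0.32 ± 0.13 and 0.59 ± 0.15 (adjusted p = 0.0779, 0.052 and 0.0244 in the same exact permutation tests), and its day 6 arrays overlapped day 0. That last increase did not pass without day 0 mouse 1, 2 or 5 (adjusted p = 0.0536 each), and without day 0 mouse 3 the increases of day 2 and day 4 passed (0.33 and 0.41), as did that of Psmb9 to Psmb6 at day 4 (0.71). Both day 4 increases also passed without day 4 mouse 4 (0.37 and 0.62). The macrophage and neutrophil marker sums rose over the same days, and their part in these ratios was not tested.

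**Figure D5:**
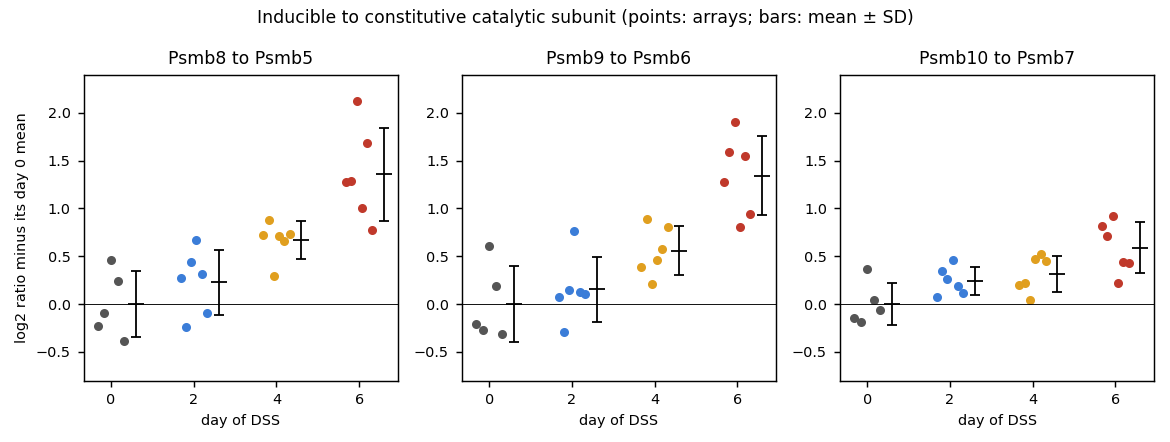
Log2 ratio of each inducible subunit to the constitutive subunit it replaces, minus the mean of day 0, on each array (points) with the mean ± SD of each day as bars. All day 6 points lie above all day 0 points for Psmb8 to Psmb5 and Psmb9 to Psmb6, and overlap them for Psmb10 to Psmb7.

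Genes that help to build or steer the constitutive particle gave a mixed picture at day 6. Pomp, the maturation factor of the core, had signals of 4107, 4211 and 4411 at day 0 and 5007, 5106 and 5403 at day 6, without overlap (0.28, adjusted p = 0.000392). It was the only riser among 5 core assembly chaperones (20%, beside 18.1% of all genes), none of which fell. Sem1, a small lid subunit whose symbol the rule does not take, rose by 0.20 (adjusted p = 0.00776) as the only gene tested of the list of other cap subunits. None of the 3 genes for other caps and the inhibitor (Psme3, Psme4 and Psmf1) passed.

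Of 10 tested genes of the list of regulators, Nfe2l1 and Stat3 rose (20%) and Nfe2l2 fell (10%). These shares were near the 18.1% and 14.3% of all genes. Nfe2l1, the factor that restores proteasome gene expression when the proteasome is inhibited, had 1647, 1858 and 1908 at day 0 and 2005, 2262 and 2367 at day 6, without overlap (0.31, adjusted p = 0.00408). Stat3, the transcription factor downstream of interleukin cytokines, changed by 0.64 (adjusted p = 0.00363), and Nfe2l2, the factor of the oxidative stress response, by -0.25 (adjusted p = 0.00591), both with overlap. Among 12 tested deubiquitinases, shuttles and other proteasome-bound factors, 16.7% rose and 8.33% fell, no more than the shares of all genes. Zfand5, an activator of the particle, rose by 0.25 (adjusted p = 0.0027) and the thioredoxin-like Txnl1 by 0.25 (adjusted p = 0.00678). The scaffold Ecpas fell by 0.26 on the log2 scale (adjusted p = 0.0278). Zfand2a, a factor induced by arsenite and heat, fell by 0.69 on the log2 scale at day 4 (adjusted p = 0.00103), with signals of 991, 1455 and 1745 at day 0 and 728, 796 and 909 at day 4. Of the ubiquitin genes and activating enzymes only Uba6 was tested, and it did not pass (0.10).

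RefSeq promoter windows, from 250 bases before to 50 after the start of a transcript (build GRCm38.p6), were at hand for 29 of the 35 genes tested. They were searched on both strands for CCAAT, the box bound by NF-Y, for TGACNNNGC, the core of the element bound by Nfe2l1 and Nfe2l2, for CCGGAAG, the core bound by many ETS factors, and for TATAAA. Matches of different motifs did not overlap in the windows of the 29 genes. CCGGAAG was in the windows of 11 genes (37.9%), beside 9.93% of all 27025 genes with a window. CCAAT was in 12 (41.4%, beside 41.1%), TGACNNNGC in 5 (17.2%, beside 14.0%) and TATAAA in 3 (10.3%, beside 15.7%). Of the 10 genes with a window that rose at day 6, 5 held CCGGAAG, 4 CCAAT, 1 TGACNNNGC and 1 TATAAA, and of the other 19 genes, 6, 8, 4 and 2 held them. These are counts of letters, not of bound sites.

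The windows of 3 genes are printed up to the start of the transcript, 5′ to 3′ on the strand of the gene, with motif matches in capitals. Psmd2 had the lowest adjusted p at day 6 and holds CCGGAAG on the reverse strand (chr16:20651402-20651651, + strand). Psmd12 is the riser that holds TGACNNNGC, on the reverse strand near the far end, and it holds CCGGAAG on the reverse strand near the start (chr11:107479278-107479527, + strand). Psmb5, a cutting subunit that did not pass, holds TGACNNNGC on its own strand close to the start (chr14:54617996-54618245, - strand).
Psmd2: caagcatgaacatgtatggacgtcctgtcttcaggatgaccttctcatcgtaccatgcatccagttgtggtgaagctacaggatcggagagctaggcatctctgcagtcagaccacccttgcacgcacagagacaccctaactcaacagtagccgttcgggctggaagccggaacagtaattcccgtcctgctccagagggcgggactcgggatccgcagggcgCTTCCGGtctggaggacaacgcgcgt
Psmd12: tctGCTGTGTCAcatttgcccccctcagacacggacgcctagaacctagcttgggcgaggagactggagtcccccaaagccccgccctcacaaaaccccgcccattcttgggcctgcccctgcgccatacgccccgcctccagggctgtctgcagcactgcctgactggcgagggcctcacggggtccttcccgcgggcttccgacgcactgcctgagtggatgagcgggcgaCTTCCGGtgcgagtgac
Psmb5: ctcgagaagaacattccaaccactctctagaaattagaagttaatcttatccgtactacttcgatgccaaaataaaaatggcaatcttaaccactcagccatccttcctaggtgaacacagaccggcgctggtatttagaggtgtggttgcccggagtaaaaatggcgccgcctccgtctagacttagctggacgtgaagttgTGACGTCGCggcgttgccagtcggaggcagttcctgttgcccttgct
The element of the stress-response factors is thus present in a window of a gene that did not pass and, farther from the start, in that of a gene that rose. A match says only that the letters are there.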

How the data were processed

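RNA of 23 mouse colons was measured on Affymetrix arrays. Each deposited value is a probe set's linear signal intensity, which the authors made with MAS5 per the submitters' processing notes. No version is given in the sources used here. Every array had a mean of 500 once 2% was trimmed from both ends, so no further normalization was applied. Of 45101 probe sets, 64 controls were left out, 34945 had 1 symbol in the platform annotation, 932 several and 9160 none. Those with 1 symbol and at least 5 arrays above their array's median (50th percentile) were kept (21639), and each gene was represented by its probe set of highest mean. Values were log2(signal + 16). The 4 days were fitted together in limma 3.58.1 (lmFit, eBayes with trend; R 4.3.3), without the mouse number, and each contrast was adjusted by Benjamini-Hochberg over 12463 genes. The fit was tested on simulated data. Tests are two-sided. Single values were compared by exact permutation tests.

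All genes named by the member probe sets are given by role. From every other pathway list and comparison, the rule allowed the 3 largest changes among genes that passed, or the 2 lowest p-values if no gene did, and the text gives some of these. The step that Psmd1 and Psmd13 took after day 4, and the genes picked to show promoters, were singled out after their values were seen. Members, lists and tests were chosen with earlier results of these data known. Alternatives were pseudocounts, filters, normalizations, the choice of probe set, the trend, the days fitted, a block, a covariate and arrays left out.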

Additional observations from a re-analysis of the deposited data

Results flagged for a closer look

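Within a day, 6 of 152 groups of arrays held an array whose gap to its nearest neighbour took up most of the group's range (Dixon's test), and chance alone flags about 1 group in 20. Of these groups, 140 were of the 35 genes taken by the rule and the rest of ratios of inducible to constitutive subunits, and each array found belongs to the former. Day 2 mouse 52 was highest of its day for Psma1, with a signal of 5555 (next 4978), and for Psma6, with 6031 (next 5395). This array also had the highest mean of the proteasome genes among the day 2 arrays. Day 2 mouse 6 was highest for Psmd11 with 5582 (next 4649), and day 4 mouse 7 with 4845 (next 4352). Day 2 mouse 8 was highest for Psmd5, with 1374 (next 1190). Day 0 mouse 4 was lowest for Psmb1, with 4791 (next 5580).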

How the results depend on the processing

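Of 24 calls of single genes, both pseudocounts kept 24 and the stricter filter kept the 23 it could test. Median centring lost 15, the block 15 and the hybridization covariate 16, and the causes were not tested. Members higher at day 4 (1 in the report) numbered 2 with quantile normalization or the second-brightest probe set, 3 with every probe set on its own, and 0 with median centring, the mean of probe sets, no trend, the block, the covariate or without the 4 arrays that stood apart. All genes higher at day 4 (12.1% in the report) were 11.9% with quantile normalization and 9.31% with the second-brightest probe set. Of single probe sets 10.1% were higher. In the other settings named, all genes higher ran from 1.09% with the covariate to 13.2% without the 4 arrays. Members lower at day 4 (0) numbered 1 with the stricter filter, the mean, every probe set, no trend, only the 2 days compared or without the 4 arrays. The share lower over everything tested (4.32% in the report) was 4% to 9.39% in those settings. Members higher at day 6 (12) numbered 5 with centring, 6 with the block or the second-brightest probe set and 3 with the covariate, and members lower (1) numbered 3 with centring, 0 with the covariate and 2 without the 4 arrays. In the same order, all genes higher (18.1% in the report) were 12.5%, 11.5%, 14.7% and 4.56%. All genes lower (14.3%) were 19.1%, 3.99% and 14.3%. The day 6 median (0.15) was 0.0634 with centring and 0.0872 with the covariate. From day 2 to day 4, members lower (2) numbered 1 with no filter, quantile normalization, centring or no trend, and 0 with the mean, the block, the covariate or the second-brightest probe set. All genes lower in that step (4.09% in the report) were 2.03% to 3.55% in the former settings and 0.0963% to 5.86% in the latter. From day 4 to day 6, members higher (8) numbered 5 with no filter or the covariate, 2 with centring or the block, 4 with only the 2 days and 3 without the 4 arrays, and the median was 0.0467 with centring. All genes higher in that step (9.09% in the report) were 6.11% to 8.08% in those settings. Members differing across the days (14, beside 43.6% of all genes) numbered 4 with centring or the covariate, 5 with the block and 9 with the second-brightest probe set. The share of all genes differing was not computed for these settings, so these counts cannot be set against it. The second-brightest probe set, chosen after seeing the data, reversed Psma6 at day 4 (-0.0903) and Psmb3 at day 6 (-0.0563).

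Leaving out each array in turn gave 0 to 1 members higher and 0 to 2 lower at day 4, 1 to 2 lower at day 6 (2 without day 0 mouse 4 or day 6 mouse 1 or 29), 1 to 3 lower from day 2 to day 4, and 3 to 10 higher from day 4 to day 6. In the same order, the shares of all genes ran from 8.79% to 12.8%, 3% to 4.64%, 12% to 14.6%, 1.53% to 4.89% and 7.26% to 9.8%. The change of the ratio of Psmb10 to Psmb7 ran from 0.19 to 0.33 at day 2, from 0.27 to 0.41 at day 4 and from 0.52 to 0.68 at day 6, where it did not pass without day 0 mouse 1, 2 or 5, and that of Psmb9 to Psmb6 at day 4 from 0.48 to 0.71. The F test was not run with only the 2 days compared.

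Same-numbered mice of different days did not deviate together in general: over 17 such pairs the correlation ran from -0.16 to 0.70, with a median of 0.05 and 3 above 0.1. Over 181 other pairs it ran from -0.50 to 0.38, with a median of 0.00 and 36 above 0.1. The highest value was that of day 2 mouse 8 and day 4 mouse 8, which both had low skeletal muscle and squamous signal. The mouse number was not used as a pairing, because the labels do not say that it is shared between days. With it as a replicate block, 6 members (17.1%) were higher and 1 (2.86%) lower at day 6, beside 11.5% and 8.17% of all genes.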
